A study of Mus musculus with 4 samples.

Results

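RNA polymerase II (Pol II) peaks whose summit lay inside an exon, away from promoters, made up 13672 of the 389754 peaks called over 4 libraries of mouse brain endothelial cells (ECs). A peak was a member if its summit fell in an exon of a protein-coding gene, more than 10 kb downstream of the gene's 5′ end, more than 1500 bp from every annotated transcription start site (TSS) and more than 1000 bp before the gene's 3′ end. Exons were those of GENCODE M21 (basic set) on mm10. The rule used position alone, not the height of the peak or the library. By library, 2685, 1620, 887 and 8480 peaks met it, the first pair being old WT Cre replicates 1 and 2 and the second pair their young EC-K4KO counterparts, and values below keep this order. The bases that satisfy the rule, called the exon zone here, added up to 34.7 Mb, or 1.31% of the genome outside gaps, and 13000 of 21938 protein-coding genes held at least 1 such base.

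The series set 2 libraries of brain ECs from old WT Cre mice against 2 from young EC-K4KO mice. Old WT Cre mice (20 to 23 mo) carried the VE-cadherin (Cdh5) driven, tamoxifen-induced CreERT2 and an intact Klf4 gene. Young EC-K4KO mice (4 to 6 mo) carried the same driver with floxed Klf4, the gene of a Krüppel-like transcription factor, so that both groups had Cre and tamoxifen on a C57BL/6J background. Genotype and age changed together between the groups, so their effects cannot be told apart. The methods call the libraries of a group biological replicates, and how many animals gave each one is not given in the sources used here. p-values measure only the spread between these libraries.

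Depth and list length differed strongly among libraries. The peak caller had 65734178, 27455452, 35227929 and 22705175 fragments, yet the shallowest library, young EC-K4KO replicate 2, had the longest list, with 235591 peaks against 78851, 39674 and 35638 in the others. Because list length sets how many exon peaks a library can have, shares, densities and ratios within a library are given in place of raw counts. Of 20 EC marker genes, 7, 7, 1 and 13 had a peak near a TSS, and of 10 neuronal marker genes 3, 2, 1 and 7 did. Over all 21938 genes the share with such a peak was 25.6, 24.5, 10.6 and 67.5%, so the EC markers were above the rate of all genes in both old WT Cre libraries and below it in both young EC-K4KO libraries, and young EC-K4KO replicate 1 marked few promoters of any kind. Of 7 astrocyte markers 3, 2, 1 and 4 had a promoter peak, of 7 oligodendrocyte markers 1, 1, 0 and 6, of 8 microglial markers 3, 1, 0 and 5, and of 8 mural markers 3, 0, 2 and 5. With so few genes in a list, these counts do not show which cell type gave the peaks.

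Pol II pauses near the TSS of many genes and then travels through exons and introns while the nascent transcript is spliced. Exons are richer in GC than the introns beside them, hold more nucleosomes, and are flanked by splice sites that are recognised while the polymerase is still on the gene. The yield of sequenced fragments in ChIP-seq can itself vary with GC content. Per the methods, the chromatin of these libraries was cut by digestion with the nuclease MNase. How that step bears on the densities by GC content was not tested.

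Windows of 200 bp around the summits of named regions show what an exon peak covers. They are given on the strand of the gene, 5′ to 3′, with exon bases in capitals and intron bases in lower case, from the mm10 (GRCm38) reference. In the first set are coding exons of long genes with a peak in all 4 libraries, and in the second are regions with a peak in both libraries of one group alone.
Peak1 exon 4, chr9:56260369-56260568, minus strand: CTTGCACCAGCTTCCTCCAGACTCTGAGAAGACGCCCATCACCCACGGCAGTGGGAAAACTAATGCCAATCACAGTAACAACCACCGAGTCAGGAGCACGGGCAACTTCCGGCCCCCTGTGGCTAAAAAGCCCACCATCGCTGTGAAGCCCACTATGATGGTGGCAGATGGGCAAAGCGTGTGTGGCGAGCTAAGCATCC
Tmcc1 exon 11, chr6:116022236-116022435, minus strand: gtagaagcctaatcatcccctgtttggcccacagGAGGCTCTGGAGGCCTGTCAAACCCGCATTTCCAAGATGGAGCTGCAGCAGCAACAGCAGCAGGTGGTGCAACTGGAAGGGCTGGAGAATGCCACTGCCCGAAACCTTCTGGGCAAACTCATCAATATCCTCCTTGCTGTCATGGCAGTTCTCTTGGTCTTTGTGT
Thsd7b exon 3, chr1:129595430-129595629, plus strand: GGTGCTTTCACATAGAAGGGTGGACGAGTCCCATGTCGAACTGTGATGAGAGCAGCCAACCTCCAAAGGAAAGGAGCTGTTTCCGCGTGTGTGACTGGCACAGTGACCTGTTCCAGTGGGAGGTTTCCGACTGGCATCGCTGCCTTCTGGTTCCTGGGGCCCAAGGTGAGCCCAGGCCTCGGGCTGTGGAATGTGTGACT
Arfgef3 exon 33, chr10:18591739-18591938, minus strand: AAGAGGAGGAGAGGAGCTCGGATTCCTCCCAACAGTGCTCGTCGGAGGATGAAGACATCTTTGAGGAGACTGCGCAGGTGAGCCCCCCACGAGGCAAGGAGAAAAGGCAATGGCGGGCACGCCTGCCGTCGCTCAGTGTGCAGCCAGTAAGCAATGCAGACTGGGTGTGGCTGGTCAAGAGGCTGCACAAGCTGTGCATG
Sfi1 exon 9, chr11:3165505-3165704, minus strand: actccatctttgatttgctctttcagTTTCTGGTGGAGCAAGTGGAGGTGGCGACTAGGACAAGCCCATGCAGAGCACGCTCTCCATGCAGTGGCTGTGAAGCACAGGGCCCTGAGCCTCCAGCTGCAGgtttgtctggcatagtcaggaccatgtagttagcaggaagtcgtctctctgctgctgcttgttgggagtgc
Ehmt1 exon 14, chr2:24838695-24838894, minus strand: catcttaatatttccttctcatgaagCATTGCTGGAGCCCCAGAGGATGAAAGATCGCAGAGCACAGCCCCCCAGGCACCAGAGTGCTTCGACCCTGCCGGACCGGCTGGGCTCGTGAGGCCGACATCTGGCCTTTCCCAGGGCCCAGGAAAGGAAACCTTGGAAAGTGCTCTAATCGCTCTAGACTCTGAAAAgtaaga
Esr1 exon 7, chr10:4856896-4857095, plus strand: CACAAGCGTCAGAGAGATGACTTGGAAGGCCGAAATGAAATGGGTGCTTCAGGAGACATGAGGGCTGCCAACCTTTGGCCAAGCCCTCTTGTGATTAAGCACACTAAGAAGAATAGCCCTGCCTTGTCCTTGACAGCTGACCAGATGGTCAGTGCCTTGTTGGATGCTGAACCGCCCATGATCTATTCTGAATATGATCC
Reln exon 50, chr5:21925236-21925435, minus strand: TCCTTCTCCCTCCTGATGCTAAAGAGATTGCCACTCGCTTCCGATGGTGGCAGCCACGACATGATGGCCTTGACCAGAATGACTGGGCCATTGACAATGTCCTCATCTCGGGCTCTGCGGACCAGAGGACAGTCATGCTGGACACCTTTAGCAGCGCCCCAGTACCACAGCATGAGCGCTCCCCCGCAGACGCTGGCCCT
Rbl1 exon 21, chr2:157150604-157150803, minus strand: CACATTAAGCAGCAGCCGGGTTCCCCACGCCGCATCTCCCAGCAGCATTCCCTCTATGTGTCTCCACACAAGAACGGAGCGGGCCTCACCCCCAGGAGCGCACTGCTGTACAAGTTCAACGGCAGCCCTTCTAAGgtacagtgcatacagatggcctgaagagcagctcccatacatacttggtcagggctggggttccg
In Peak1, Thsd7b, Arfgef3, Esr1 and Reln the whole window was coding exon, while in Sfi1 the 103-bp exon 9 and in Ehmt1 the 168-bp exon 14 lay entirely inside the window with both splice sites beside them. The windows had a GC content of 50 to 59.5% and held 2 to 9 CpG dinucleotides. Over the exon zone as a whole a 200-bp window had a mean GC content of 46.6% and 3.40 CpG.

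The first question was whether peaks fell in these exons more often than even placement gives. Exon peaks were 3.41% of the list in old WT Cre replicate 1 (95% exact binomial interval 3.28 to 3.53%), 4.08% in replicate 2 (3.89 to 4.28%), 2.49% in young EC-K4KO replicate 1 (2.33 to 2.66%) and 3.60% in replicate 2 (3.52 to 3.68%). If each peak could fall with equal chance on any base of its own chromosome outside gaps, 1.39, 1.39, 1.37 and 1.38% would be in exons. This value was computed exactly from base counts, with no random draws. Measured counts were thus 2.45, 2.95, 1.82 and 2.60 times those of even placement, above 1 in 4 of 4 libraries. The intervals cover counting error only.

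**Figure D1:**
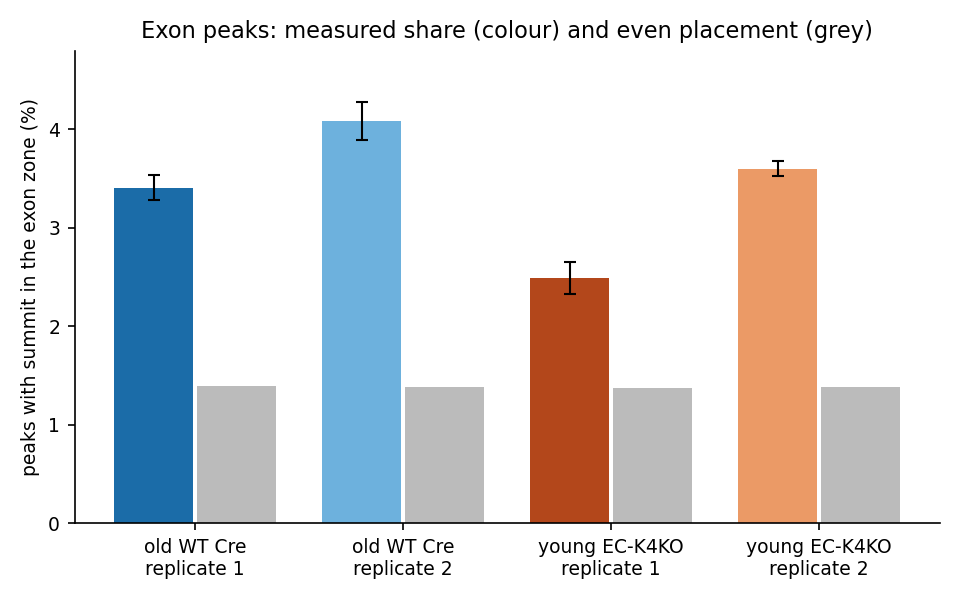
Share of each library's peaks with a summit in the exon zone (coloured bars, in percent of all peaks, with 95% exact binomial intervals) beside the share under even placement (grey bars). Measured shares of 2.49 to 4.08% stand above grey bars of 1.37 to 1.39% in each of the 4 libraries.

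The groups did not separate on this measure. The mean exon share was 3.74% ± 0.479 for the old WT Cre libraries against 3.04% ± 0.785 for young EC-K4KO (SD, n = 2 each), a difference of -0.70 percentage points, and young EC-K4KO replicate 2 lay between the old WT Cre libraries. In the two-sided exact permutation test over the 6 divisions of the libraries, p was 0.6667, where 0.3333 is the smallest p that 2 against 2 allows. The ratio to even placement was 2.70 ± 0.353 and 2.21 ± 0.557 (SD, n = 2 each; exact permutation p = 0.6667). No group difference of any size could have passed 0.05 in this test.

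Introns under the same distance rules were the closest comparison, since they are transcribed by the same polymerases. Summit density was 77.3, 46.7, 25.5 and 244 per Mb in exons and 30.2, 13.2, 11.5 and 87.3 per Mb in introns. Exons were denser by 2.56, 3.54, 2.21 and 2.80 times, in 4 of 4 libraries. Group means of this ratio were 3.05 ± 0.694 for old WT Cre against 2.50 ± 0.413 for young EC-K4KO (SD, n = 2 each; exact permutation p = 0.6667). With each list shortened to its 35638 peaks of lowest q, the means were 2.98 and 2.96, a difference of -0.0181 (exact permutation p = 1.0).

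GC content moved with this difference. The mean GC content of the 200-bp window was 46.6% over the exon zone and 42.1% over introns, and peaks lay in the GC-rich part of each, with a median of 56.0, 57.5, 55.0 and 56.5% at exon summits and 52.5, 54.0, 53.0 and 52.0% at intron summits. In exons of old WT Cre replicate 1 the density rose from 3.21 per Mb at 40 to 45% GC to 128 per Mb at 50 to 55% and 239 per Mb at 55 to 60%. In introns of that library it rose likewise, from 7.85 to 96.3 and 204 per Mb. Summits were thus scarce in AT-rich exons. Bases with a GC content under 45% made up 41.7% of the exon zone and held 0.782, 1.36, 1.35 and 3.23% of the exon summits.

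When exon and intron densities were compared within bins of 5 percentage points of GC content, weighted by exon bases, most of the excess was gone. The ratio was then 1.05, 1.10, 0.847 and 1.19, with group means of 1.08 ± 0.0404 and 1.02 ± 0.241 (SD, n = 2 each; exact permutation p = 1.0). The bins did not behave alike. Between 50 and 55% GC exons were denser in each library, by 1.33, 1.66, 1.26 and 1.31 times, and between 65 and 70% GC they were sparser in 3 libraries, at 0.446, 0.550 and 0.105 times the intron density (the last from 8 exon summits), and level in young EC-K4KO replicate 2 (1.03 times).

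**Figure D2:**
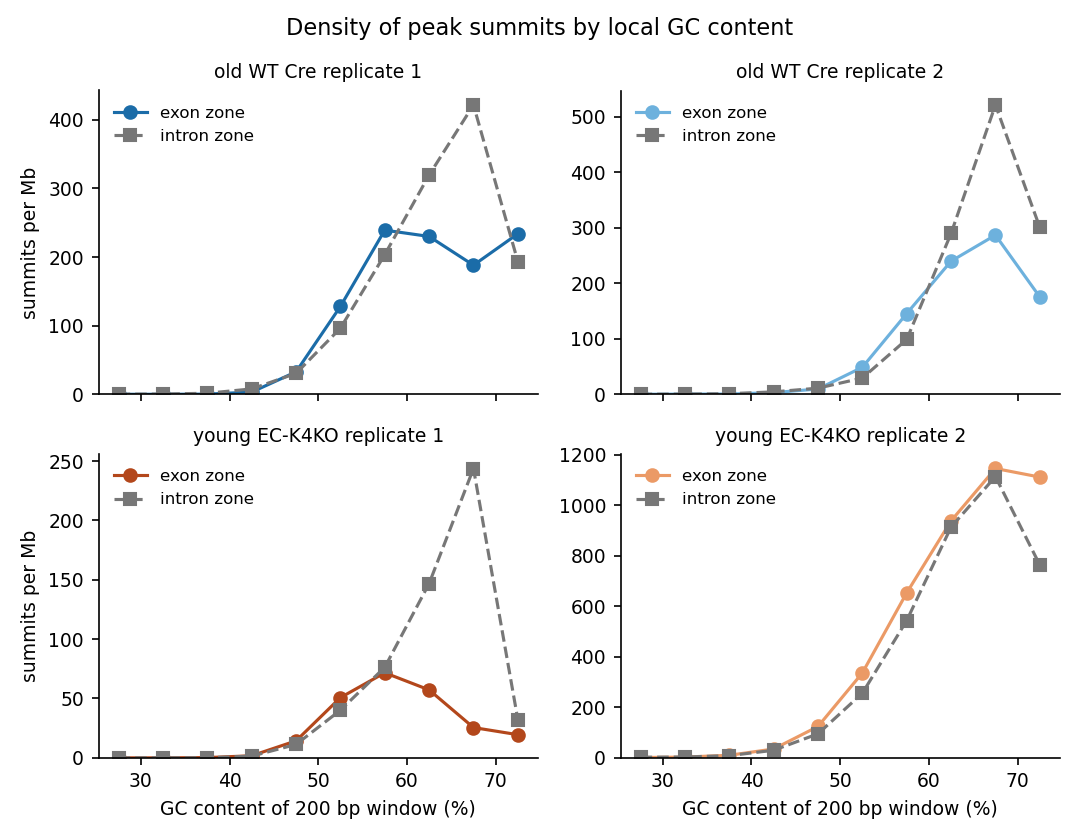
Density of peak summits (per Mb) against the GC content of the 200-bp window, for exons (coloured circles) and introns (grey squares), 1 panel for each library. Both lines climb steeply from about 45% GC, and between 60 and 70% GC the intron line lies over the exon line in every library but young EC-K4KO replicate 2.

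Repeats moved with the intron values too. Annotated repeats (soft-masked bases of the reference) held 42.6, 49.6, 35.7 and 26.9% of intron summits but 5.51, 4.38, 4.51 and 4.49% of exon summits. Without soft-masked bases the plain ratio was 3.32, 5.29, 2.59 and 2.88, and the ratio within GC bins was 1.26, 1.44, 1.13 and 1.22, above 1 in 4 of 4 libraries. Both old WT Cre libraries then lay above both young EC-K4KO ones, with a difference of -1.57 in the plain ratio and -0.17 within GC bins, each at an exact permutation p of 0.3333, the smallest possible. With repeats left out, exons kept a density 1.13 to 1.44 times that of introns of like GC content, against 2.21 to 3.54 times with no allowance for either.

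**Figure D3:**
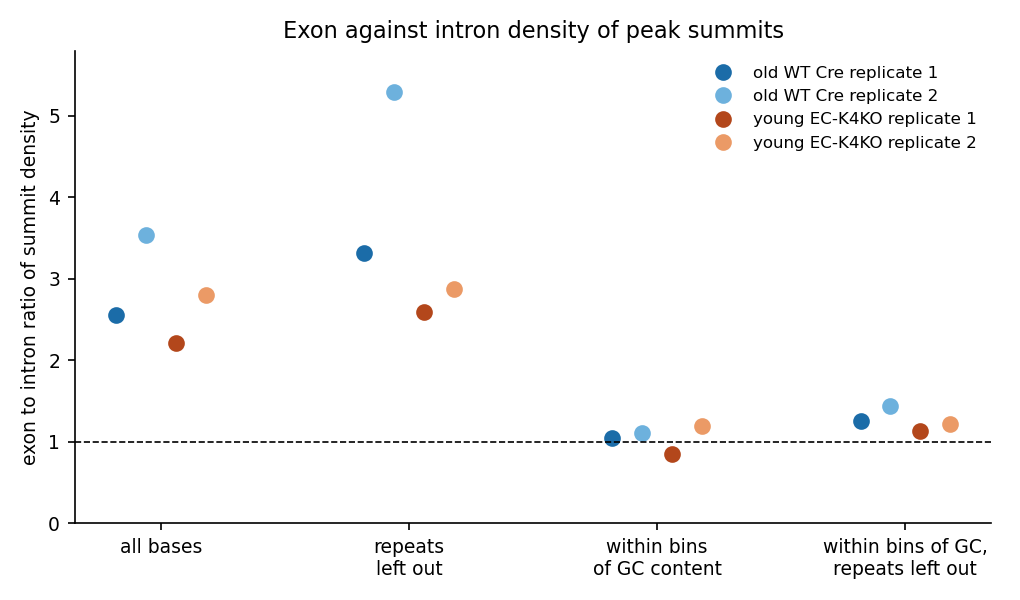
Ratio of summit density in exons to that in introns for each library (coloured points), computed over all bases, without repeats, within bins of GC content, and within bins of GC content without repeats. The dashed line marks equal density. Points lie between 2.21 and 5.29 in the columns without GC bins and between 0.847 and 1.44 in the columns with them.

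The position of summits around exons was then examined at single-exon scale. Around the midpoints of 69877 internal exons, summits within 100 bp of the midpoint had a density of 84.4, 43.3, 28.1 and 249 per Mb, against 33.7, 15.6, 11.3 and 99.5 per Mb between 500 and 1000 bp away. The ratio was 2.50, 2.77, 2.48 and 2.50, nearly the same in each library although list length differed widely. In all 4 libraries the bin with the highest density was the 50 bp just downstream of the midpoint. Mean GC content was 46.8% within 100 bp of the midpoint and 43.0% in the flanks, and its highest bin was the same one.

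**Figure D4:**
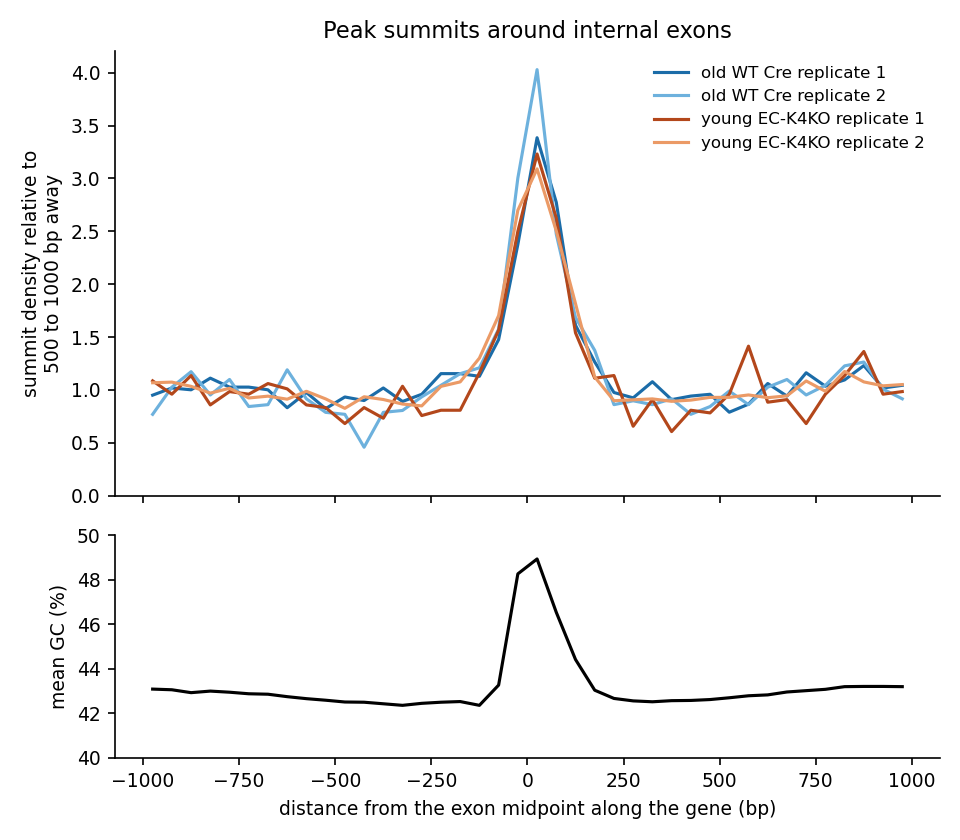
Density of peak summits around the midpoint of internal exons, relative to the mean density 500 to 1000 bp away (upper panel, 1 line for each library, bins of 50 bp), and mean GC content of the same bins (lower panel). Summit density and GC content both rise in the 200 bp around the midpoint and are highest just downstream of it in each library.

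Coding exons held more peaks than noncoding exon bases of the same zone. Coding sequence was 58.3% of the exon zone but held 78.1, 84.1, 78.8 and 80.1% of the summits. The density was 104, 67.3, 34.5 and 335 per Mb in coding sequence and 40.5, 17.7, 13.0 and 117 per Mb in the untranslated and other noncoding exon bases. Coding bases were the denser of these in each library, with no allowance for GC content. The ratio of coding to intron density was 3.43, 5.11, 2.99 and 3.84 over all bases. Within GC bins it was 1.075, 1.162, 0.866 and 1.255, against 1.05, 1.10, 0.847 and 1.19 for all exon bases. Coding and noncoding exon bases were not compared directly at like GC content. Group means of the coding share did not differ beyond the spread (81.1 ± 4.24 and 79.4 ± 0.898%, SD, n = 2 each; exact permutation p = 1.0).

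Short exons were poor in summits. In exons of at most 100 bp the density was 43.3, 22.7, 13.3 and 144 per Mb, and in exons of 201 to 400 bp it was 143, 85.2, 47.9 and 454 per Mb. Exons above 1000 bp had 59.7, 33.2, 20.3 and 179 per Mb. The 201 to 400 bp class was the densest in 3 libraries, and in old WT Cre replicate 2 the 401 to 1000 bp class stood above it at 116 per Mb. Over all exons the first of 3 equal parts held the most summits (38.2, 39.9, 38.9 and 40%) and the last the fewest (27.3, 24.9, 24.7 and 24.9%). Last exons, whose final 1000 bp the rule leaves out, held 31.7, 28.4, 31.7 and 30% of the summits. Within internal exons alone the middle part was favoured, with 38.5, 40.6, 40.8 and 38.4% of summits in the middle 1 of 3 equal parts, and the 5′ part held the fewest, with 26.0, 26.3, 27.9 and 29.1%.

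Exon and intron peaks had like fold enrichment. Median fold enrichment over the local background was 3.76, 4.85, 4.11 and 4.79 in exons and 3.94, 4.85, 4.14 and 4.79 in introns. Median pileup at the summit was 21, 13, 15 and 16 fragments in exons and 21, 13, 14 and 13 in introns, so exon peaks were higher by this measure in both young EC-K4KO libraries. Median −log10 q was 5.50, 4.87, 4.09 and 6.27 in exons and 5.50, 5.09, 4.17 and 5.59 in introns. Median width was 219, 196, 188 and 194 bp in exons and 219, 194, 190 and 181 bp in introns, where the caller gave fragment sizes of 174, 162, 160 and 151 bp, and 43.1, 45.7, 47.1 and 43.0% of the exon peaks lay wholly inside exon bases. The median summit was 49.9, 46.6, 57.3 and 43.8 kb from the 5′ end of its gene.

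Few peaks recurred between libraries, in exons as elsewhere. Merged where they overlapped by at least 1 bp, the 13672 peaks formed 12245 regions, of which 10996 (89.8%) had an exon peak in 1 library, 1098 (8.97%) in 2, 138 (1.13%) in 3 and 13 (0.106%) in 4. Regions with a peak in 1 library were likewise 87.3% of all merged regions in the genome and 90.5% of intron regions, and those with a peak in 2 were 10% and 7.97%. Over all merged regions, 0.69% had a peak in all 4 libraries, and the shares were 0.391% for intron regions and 0.877% for regions near a TSS. Regions shared by all libraries were thus a smaller share of exon regions than of each of those classes. The definitions are not alike, however. An exon region counted only peaks with a summit in exon bases, whereas all merged regions counted every peak.

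Overlap was highest with the longest list, and the parts of list length and group in it were not separated. The lists of old WT Cre replicate 2 and young EC-K4KO replicate 1 were of similar length (39674 and 35638 peaks). Of the exon peaks of old WT Cre replicate 1, 8.38% were overlapped by a peak of old WT Cre replicate 2, 4.66% by one of young EC-K4KO replicate 1 and 27.2% by one of young EC-K4KO replicate 2. For intron peaks of that library the shares were 10.4, 5.46 and 19.9%, and for peaks near a TSS 18.5, 8.93 and 42.7%. Peaks of these 3 libraries covered 0.985, 0.537 and 5.47% of the exon zone. Of the exon peaks of young EC-K4KO replicate 1, 25.9% were overlapped by the other young library and 13.2% by old WT Cre replicate 1 (23.2 and 14.5% of intron peaks), whose peaks covered 1.88% of the zone. Each overlap exceeded the covered share, but that share is the rate for a single base. Whole peaks that need overlap by only 1 bp exceed it even under even placement, so no recurrence can be read from the excess. The overlap with young EC-K4KO replicate 2 was the highest for each of the other libraries.

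With the 2 libraries of a group merged on their own, 198 regions had an exon peak in each of the old WT Cre libraries and 186 in each of the young EC-K4KO ones, and 13 of the 198 (6.57%) overlapped 1 of the 186. In the merge of all 4 libraries, 201 regions had an exon peak in each old WT Cre library. Of these, 13 (6.47%) also had an exon peak in each young library. The same share was 21.9% over all merged regions, counting peaks of any class, and 16.1% over intron regions, counting intron peaks. Regions of that merge with an exon peak in each old WT Cre library but no peak of any kind in a young one numbered 90 (0.735% of exon regions), where 1.36% of all merged regions showed that pattern. In the other direction there were 120 (0.98%), against 1.62% of all merged regions. Read against the regions that recurred within a group, which were fewer among exon regions, the same counts were 44.8% of 201 for old WT Cre, against 43.0% of all merged regions, and 64.5% of 186 for young EC-K4KO, against 51.1%. For intron regions only intron peaks of the other group counted against absence, which is a looser rule. Under it these shares were 56.5 and 56.1%, and over all intron regions 1.37 and 1.15%. Exon and intron regions cannot be ranked on these unlike rules, and none of these differences was tested.

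The 13 regions with a peak in all 4 libraries lay in 11 genes, and in 12 of the 13 all summits were coding. Peak1, which encodes a cytoskeleton-associated pseudokinase, had the most even of them. Its region in exon 4 of 8 (chr9:56260351-56260700, minus strand), a 3236-bp coding exon 158 kb from the 5′ end, had a fold enrichment of 14.5, 15.7, 13.1 and 15.2. It was the first or the second tallest exon peak by fold in the old WT Cre libraries and young EC-K4KO replicate 1 and the fourth in young EC-K4KO replicate 2, and none of its 31-base words occurred elsewhere on the assembled chromosomes. Tmcc1, which encodes an endoplasmic reticulum membrane protein, had fold enrichments of 17.0, 11.6, 9.05 and 16.5 in exon 11 of 11 (chr6:116022019-116022433), at a summit on a soft-masked repeat.

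The remaining shared regions had lower or less certain peaks. Thsd7b (thrombospondin type 1 domains), exon 3 of 29, had fold enrichments of 4.13, 6.34, 4.46 and 7.40, Arfgef3 (of the ARF exchange factor family), exon 33 of 34, had 4.70, 4.10, 4.78 and 7.84, and Zfp180 (a zinc finger protein), exon 5 of 5, had 4.28, 5.61, 3.16 and 4.83. Map3k1, a kinase of stress signalling, had 3.33, 5.22, 5.27 and 5.48 in its last exon, where not every summit was coding. In Sprr2a2 and Muc6 (2 regions) all 31-base words recurred elsewhere in the genome, in Eppk1 81.8% did and in Kdm4d 63.5%. Such repeated words were found for at least 50% of the sequence in 5 of the 13 regions (38.5%) but in 14 of the 151 regions with a peak in 3 or more libraries (9.27%), so peaks there cannot be assigned to 1 copy with certainty.

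Sfi1, which encodes a centrin-binding protein of the spindle pole, stood apart by its coverage. Exon 9 had a pileup of 152, 83, 111 and 152 fragments at the summit but a fold enrichment of only 5.20, 7.98, 5.03 and 10.6, and exon 11 had 116, 89, 85 and 131 fragments at 4.50, 10, 3.58 and 8.82. The local background under these peaks was thus far above that of Peak1, where 78, 41, 47 and 47 fragments gave 13.1 to 15.7-fold. Sfi1 also had the most exon regions with a peak in at least 2 libraries, 5, level with 5430419D17Rik. No 31-base word of the exon 9 and exon 11 regions recurred on the assembled chromosomes, and unplaced sequence was not searched.

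**Figure D5:**
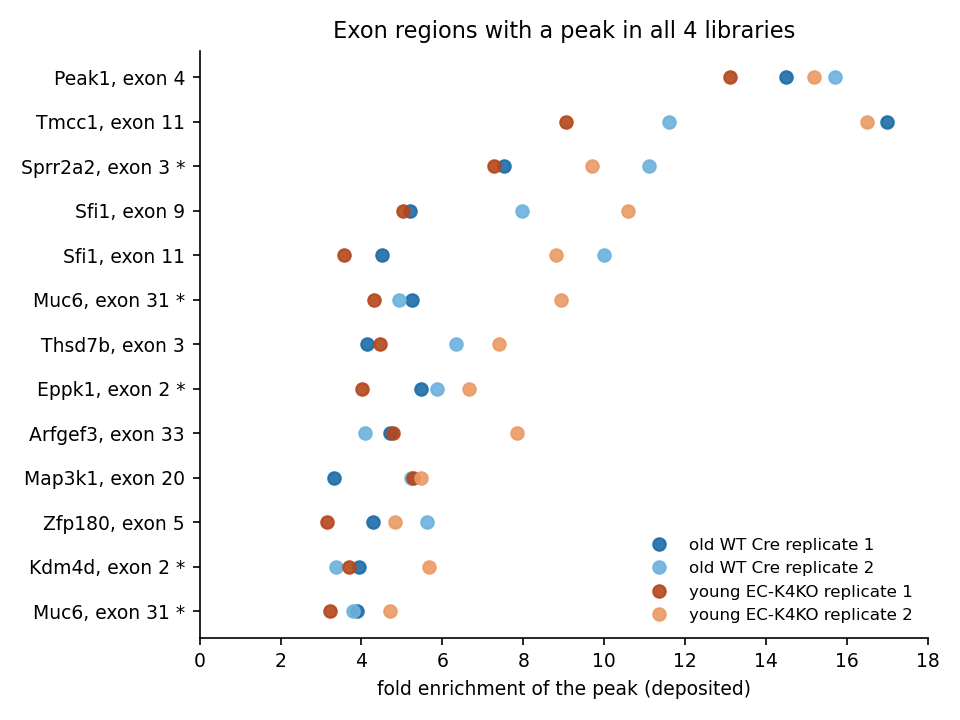
Deposited fold enrichment of the peak in each of the 4 libraries (coloured points) for the 13 exon regions with a peak in all of them, ordered by their mean. An asterisk marks the 5 regions in which at least 50% of 31-base words occur elsewhere in the genome. Peak1 and Tmcc1 lie at 9.05 to 17.0 and 7 of the others stay below 8 in all libraries.

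Among regions found in both young EC-K4KO libraries alone, the tallest was in Esr1, the gene of oestrogen receptor alpha. Its exon 7 of 13 (chr10:4856861-4857194, plus strand) had a fold enrichment of 8.29 in replicate 1 and 16.2 in replicate 2, the fourth and the third tallest exon peaks of those libraries. The replicate 1 peak, 334 bp wide, nearly matched the 336-bp exon. In replicate 2 there were also peaks in exons 4, 8, 12 and 13, with fold enrichments of 6.14, 13.7, 10.6 and 11.5, and neither old WT Cre library had an exon peak in any of these exons. The ligand-binding domain of this receptor is also a part of CreERT2, the driver that both groups carried, and whether fragments of the transgene were aligned to any of these exons was not tested.

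The other regions of this kind had lower values. Rbl1 (p107, a relative of the retinoblastoma protein), exon 21 of 22, had fold enrichments of 6.36 and 6.97, Reln (the secreted glycoprotein reelin), exon 50 of 65, had 6.88 and 9.14, and Plekhb1 (a pleckstrin homology protein), in its last exon, had 6.51 and 10.1. Lclat1, of cardiolipin metabolism, had 5.57 and 7.25 in a noncoding part of its last exon. Reln, Esr1 and Lclat1 each had exon peaks elsewhere in the gene in old WT Cre replicate 1, that of Lclat1 (5.07-fold) in the same last exon. For these genes the absence concerns the region and not the gene. Rbl1 and Plekhb1 had no exon peak in either old WT Cre library.

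Regions found in both old WT Cre libraries alone were led by Ehmt1, which encodes a histone H3 lysine 9 methyltransferase. Its exon 14 of 28 (chr2:24838620-24839117, minus strand) had a fold enrichment of 5.45 in replicate 1 and 11.2 in replicate 2. Primpol (a primase and polymerase of stalled replication forks) had 5.43 and 7.46, and Ick, a kinase of cilia, had 4.96 and 8.25. Peli2, a ubiquitin ligase, had 5.26 and 7.46 and Slc9b2, a sodium/proton exchanger, had 5.26 and 8.20, both at noncoding summits on repeats, and 99.4% of the words of the Slc9b2 region recurred elsewhere. Young EC-K4KO replicate 2 had exon peaks elsewhere in Ehmt1 (8.30-fold, exon 11), Peli2 (5.45-fold) and Slc9b2 (5.22-fold). For these genes too the absence concerns the region and not the gene. Primpol and Ick had no exon peak in either young EC-K4KO library.

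At the level of genes, 2172, 1396, 798 and 5100 of the 13000 eligible genes had an exon peak, which is 16.7, 10.7, 6.14 and 39.2% of them. Both libraries of a group shared 540 genes for old WT Cre against 571 for young EC-K4KO, 119 genes had an exon peak in each library of both groups, and 6773 had none in any library. Genes with exon peaks had more exon to hit, with a median exon zone of 3.67, 3.61, 4.11 and 3.13 kb against 1.98 kb over all eligible genes. Most had 1 exon peak (1804, 1210, 722 and 3128 genes).

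Genes with a peak at the promoter had more exon peaks. Of these genes 19.4, 12.6, 8.17 and 42.4% had an exon peak, against 15.5, 9.94, 5.84 and 29.2% of the genes without one. Exon summit density in genes with a peak near a TSS was 81.2, 49.0, 30.3 and 250 per Mb, and in genes without one it was 74.6, 45, 24.5 and 211 per Mb. The ratio of 1.09, 1.09, 1.24 and 1.18 was above 1 in 4 of 4 libraries. It was smaller than the exon to intron ratio over all bases. Neither the shares nor the densities allow for GC content, and the shares of genes do not allow for the size of the exon zone. Of the exon peaks, 35.3, 35.9, 17.4 and 83.5% were in genes with a promoter peak in that library, and these genes were 30.3, 30.2, 12.7 and 75.8% of the eligible ones.

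Lists of genes were read against the share of eligible genes with an exon peak in each library (16.7, 10.7, 6.14 and 39.2%). Of 36 genes of the basement membrane and matrix, on which ECs rest, 16, 18, 13 and 32 had an exon peak (44.4, 50, 36.1 and 88.9%), and 6 of them (Col4a4, Lama3, Fbn1, Fbn2, Tnc and Tnr) had one in each library. These genes are long and their exons are rich in GC (mean 50.8%). Their summits were 1.28, 2.68, 3.04 and 1.73 times as many as an even spread over the exon zone gives, and 0.842, 1.69, 2.05 and 1.16 times as many as the exon rate at the same GC content gives. Against exons of like GC content the counts were 23, 29, 18 and 98 summits where 27.3, 17.2, 8.77 and 84.6 would be even, which was not tested.

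The tallest exon peaks of these genes lay on either side of the height that 1 in 10 exon peaks of each library exceeded, which was 5.07, 6.34, 5.23 and 6.97-fold. Col6a3, a chain of type VI collagen, had 1, 2, 0 and 6 exon peaks, the tallest of them 4.32, 8.20 and 7.52-fold in the 3 libraries that had any. Col1a2, a chain of type I collagen, had no exon peak in old WT Cre replicate 1 and 1 in each other library, at 7.46, 5.42 and 7.12-fold. Tnc, which encodes tenascin C, had 1, 5, 2 and 2 exon peaks with a tallest fold enrichment of 5.45, 5.97, 5.14 and 6.83. Col4a4, a chain of type IV collagen, had 4, 2, 1 and 4 peaks with a tallest value of 4.13, 4.47, 3.35 and 6.95. Fbn2, which encodes fibrillin 2, had 3, 2, 4 and 4 exon peaks, and 3 of its regions had a peak in at least 2 libraries.

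Of 40 genes for giant multi-exon proteins, 26, 22, 18 and 38 had an exon peak, and 9 had one in each library, among them Ttn (8, 3, 3 and 20 peaks), which encodes titin, and Syne2 (1, 3, 2 and 8). Their counts were 1.24, 1.15, 1.53 and 1.18 times those given by the exon rate at the same GC content. Of 46 chromatin regulators and coactivators, 26, 12, 10 and 40 had an exon peak, at 1.26, 0.816, 1.19 and 1.01 times the rate for their GC content. Ep300, a histone acetyltransferase, with 2, 2, 3 and 2 peaks, and Tet2, a 5-methylcytosine dioxygenase, with 2, 1, 1 and 2, had one in each library.

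Splicing and RNA processing factors had exons poor in GC and few exon peaks for their length in 3 libraries. Of 40 such genes, whose exons had a mean GC content of 42.8%, 6, 2, 4 and 16 had an exon peak (15, 5.0, 10 and 40%) and none had one in each library. Their summits were 0.604, 0.286, 1.04 and 0.574 times an even spread but 1.02, 0.533, 1.69 and 0.958 times the rate at their GC content. Srrm1, a splicing coactivator, was the one member with an exon peak in 3 libraries (2, 0, 1 and 1 peaks).

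EC marker genes had few exon peaks to count. Of 17 with an exon zone, 3, 3, 2 and 9 had an exon peak (17.6, 17.6, 11.8 and 52.9%, against 16.7, 10.7, 6.14 and 39.2% of all eligible genes). Their 5, 5, 2 and 22 summits were 1.05, 1.74, 1.27 and 1.46 times an even spread and 0.832, 1.45, 0.998 and 1.21 times the rate at their GC content. Flt1 (a VEGF receptor; 1, 2, 0 and 2 peaks), Vwf (von Willebrand factor; 3, 2, 0 and 4) and Ocln (the tight junction protein occludin; 1, 0, 1 and 1) had one in 3 libraries. Of 10 neuronal markers 3, 2, 1 and 5 had an exon peak, with Grin2b, an NMDA receptor subunit, reaching 0, 1, 3 and 4 peaks. The 4, 3, 3 and 9 summits of the neuronal list were 1.23, 1.58, 2.73 and 0.865 times the rate at its GC content. Of 6 mural markers 2, 1, 0 and 4 had an exon peak, of 6 astrocyte markers 1, 1, 1 and 3, of 5 oligodendrocyte markers 2, 0, 0 and 1, and of 5 microglial markers 0, 0, 0 and 1. Counts of this size cannot separate the cell types.

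Short sequence motifs were counted in the 200-bp windows, on both strands. GGGNGTGGC, a form of the motif bound by Krüppel-like and Sp factors, was in 1.82, 2.41, 1.58 and 1.96% of windows at exon summits, against 0.945% of 347105 windows placed every 100 bp over the exon zone and 1.46, 1.84, 1.98 and 1.78% at intron summits. ACTTCCGG, of the ETS factors, was in 0.559, 0.617, 0.676 and 0.755%, against 0.362% over the exon zone and 0.169, 0.222, 0.154 and 0.216% at intron summits. Both were more frequent at exon summits than over exons as a whole in 4 of 4 libraries, and summit windows were richer in GC. The shares at exon summits rest on 49, 39, 14 and 166 windows for GGGNGTGGC and on 15, 10, 6 and 64 for ACTTCCGG. These differences were not tested. TGANTCA, of AP-1, was less frequent than over the exon zone in each library (4.66, 3.27, 3.49 and 4.23% against 5.15%). So was the splicing enhancer word GAAGAA (17.8, 15.1, 17.9 and 17.4% against 22.3%). At intron summits TGANTCA was in 4.22, 3.46, 4.73 and 5.47% and GAAGAA in 11.3, 9.36, 12.9 and 14.1%. GAAGAA was thus more frequent at exon than at intron summits in each library. CAGGGGGC, from the core of the CTCF motif, was in 1.42, 1.85, 0.789 and 2.02% against 0.906%, and in 0.94, 0.976, 0.916 and 1.07% at intron summits. Of the windows printed above, that of Peak1 holds ACTTCCGG and, on the other strand and overlapping its end, CAGGGGGC. The window of Arfgef3 holds GGGTGTGGC and that of Esr1 holds GAAGAA. These are matches of letters and not measured binding.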

How the data were processed

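Pol II was immunoprecipitated from sorted brain ECs after fixation and MNase digestion. Per the methods, the authors trimmed the reads, placed them on mm10 (Bowtie2) and took out duplicates (Picard, SAMtools). Per the file headers, peaks were called by MACS 2.2.7.1 from paired fragments at a q of 0.01, in each library alone and without a control. The deposited values of a peak are its position, its pileup (signal, in fragments), its fold enrichment (a ratio to that library's local background) and its p-value and q-value as −log10. None was normalized between libraries. The narrow peak and summit files, which repeat these peaks, were not used.

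Summits were placed on GRCm38 with the GENCODE M21 basic annotation in Python 3.11.15 (numpy 2.4.6, pandas 2.3.3, scipy 1.17.1, matplotlib 3.10.9), with exons merged over the transcripts of a gene and numbered from its 5′ end. Peaks on unplaced contigs stayed in the denominators. Groups came from the labels, and their values were tested by permuting the 4 libraries exactly. Copies were sought as 31-base words on both strands. The placement and GC steps were tested on simulated summits. Named genes were those with a region in all 4 libraries, the 5 leading genes restricted to each group, the genes with most recurring regions and list members with an exon peak in 3 or more libraries, some given by counts alone. Members, lists and motifs were chosen with earlier results of these data known. The alternatives were a stricter q or fold, lists of equal length, other distances, coding sequence alone, autosomes, GC bins, repeats left out, 50% reciprocal overlap, a replicate block, leaving out each library and, chosen after seeing the data, the comprehensive annotation and GC bins combined with repeats or coding sequence.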

Additional observations from a re-analysis of the deposited data

How the results depend on the processing

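The difference between groups in exon share, in the exon to intron ratio and in the ratio to even placement kept its sign, with young EC-K4KO lower, under each alternative run. Every p missed 0.05, as it must in these exact tests with 2 libraries a group, so the p-values say nothing about stability. Of 149 alternative values over all results, 107 stayed within the bound used and 42 moved past it, where the bound was 1 SD between replicates for a mean, the sign alone for the 44 differences between groups, and 1.5 times for a count or an overlap. The difference in the exon to intron ratio came close to 0 with lists of equal length (-0.0181) and within GC bins (-0.0587), with an exact permutation p of 1.0 in both, and grew to -1.57 without repeats (p = 0.3333). Libraries left out one at a time gave differences of -1.25 to -0.145 percentage points in exon share, -1.04 to -0.0546 in the exon to intron ratio and -0.882 to -0.0953 in the ratio to even placement. The group means then ran from 3.40 to 4.08% and from 2.49 to 3.60% for the share, from 2.56 to 3.54 and from 2.21 to 2.80 for the exon to intron ratio, and from 2.45 to 2.95 and from 1.82 to 2.60 for even placement, old WT Cre first. With a replicate block, the sign-flip test of same-numbered libraries gave the same differences of -0.70, -0.55 and -0.49 with an exact p of 0.5, the smallest that 2 pairs allow. The libraries share only a number: over 6227 genes the deviations of same-numbered libraries had a correlation of 0.0105.

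With coding sequence alone the exon to intron ratio was 4.27 for old WT Cre against 3.42 for young EC-K4KO, the ratio to even placement 3.76 and 3.01, and the old WT Cre share 3.05%. That share was 2.96% beyond 20 kb from the 5′ end. The exon to intron ratio, old WT Cre then young EC-K4KO, was 1.08 and 1.02 within GC bins, 1.12 and 1.06 within GC bins for coding sequence alone and 1.35 and 1.17 within GC bins without repeats. It was 4.31 without repeats in old WT Cre and 2.96 with lists of equal length in young EC-K4KO. The comprehensive annotation gave a ratio to even placement of 2.27 in old WT Cre. These alternatives change which bases or peaks are counted, and the cause of each shift was not tested.

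Counts of recurring regions depended on the threshold, the list length and the overlap asked for. Replicated regions, in the same order, numbered 71 and 54 at a q of at most 1e-05, 83 and 107 at a fold of at least 4, 90 and 65 with lists of equal length, and 131 and 118 with 50% reciprocal overlap. Genes in both libraries numbered 184 and 146, 232 and 295, and 255 and 195 under the first 3 of these. The share of old WT Cre regions that overlap a young EC-K4KO one was 9.86% at the stricter q and 10% with lists of equal length. With 1 library in place of a pair, the counts were 1620 to 2685 regions and 1396 to 2172 genes for old WT Cre, and 887 to 8480 regions and 798 to 5100 genes for young EC-K4KO, and the shared percentage ran from 1.64 to 46.0%. The lower ends in young EC-K4KO are those without replicate 2 and the upper ends those without replicate 1. The highest shared percentage is that without young EC-K4KO replicate 1.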

Other observations

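The tallest exon peaks outside the regions described above were chosen after their values were seen. In young EC-K4KO replicate 2 the highest fold enrichment of any exon peak, 28.7 with a pileup of 119 fragments, was in the noncoding part of the last exon of 5730455P16Rik. In that library Tenm2, which encodes a teneurin of synaptic adhesion, had a coding peak of 15-fold in exon 14 of 31, and Atl2, a GTPase that shapes the endoplasmic reticulum, had one of 13.1-fold in exon 8 of 13. In young EC-K4KO replicate 1 the second highest was in Mid1, at 9.07-fold with a pileup of 223 fragments, next to 47 fragments at 13.1-fold in Peak1. In old WT Cre replicate 1 the next after Tmcc1 and Peak1 were noncoding peaks of Ikzf2 (10.1-fold) and Gen1 (8.83-fold).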
